A study of Homo sapiens with 6 samples.

Results

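The TGF-beta readout examined here is a set of 9 genes, taken from the 60676 gene IDs of the count tables by matching Ensembl IDs to gene symbols: the signal transducer SMAD3, the inhibitors SMAD7, BAMBI and PMEPA1, the matrix gene TGFBI, and the nuclear corepressors SKI, SKIL, TGIF1 and TGIF2. All 9 were found once in the tables, and all 9 passed the filter on low counts, in every case with at least 198 counts in each library. Transcripts were counted by RNA sequencing of HEK293A, a flat-growing subline of the embryonic kidney line HEK293, in 2 groups. The VT01454 group (n = 3 libraries) was given the code-named compound VT01454 at 20 nM for 2 h, and the vehicle group (n = 3 libraries) was given DMSO for the same time. No genotype, transgene or added TGF-beta is named for either group, so the levels below are those of 1 line without an added ligand. The series title names the Hippo pathway together with phosphoinositides and their transfer proteins. No label says that the libraries are separate cultures. The p-values therefore cover the spread between libraries alone, which may be technical.

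TGF-beta and activin ligands bind pairs of receptor serine/threonine kinases, which phosphorylate SMAD2 and SMAD3; these join SMAD4, enter the nucleus and bind short DNA elements together with other factors such as AP-1. Among the genes switched on are inhibitors of the pathway itself, so SMAD7, SKIL, PMEPA1 and BAMBI serve both as readouts of signalling and as brakes on it. SKI, SKIL, TGIF1 and TGIF2 bind SMAD complexes on DNA and bring in histone deacetylases, which keeps target genes low. YAP and TAZ, the co-activators restrained by the Hippo pathway, are known to cooperate with SMAD complexes at some of these targets.

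Libraries held 24646466 to 28880374 counts with VT01454 and 19126039 to 26879796 with vehicle. By these totals alone 1 count was worth 0.0346 to 0.0523 CPM (the unit of counts scaled to library size). The CPM of genes use library sizes scaled further, as described under the processing. Libraries of the VT01454 group were closer to each other (chi-square per degree of freedom 2.05 to 2.79) than those of the vehicle group (7.81 to 19.9). Vehicle library 2 was the furthest from the others, at 9.08 and 19.9 from vehicle libraries 1 and 3 and at 16.1 to 18.1 from the VT01454 libraries. Vehicle libraries 1 and 3 lay at 7.53 to 8.49 from the VT01454 libraries. KRT8, KRT18, VIM and NEFL, which HEK293 cells express, stood at 255 CPM or more in every library, while PAX2 stood at 0.245 to 0.708 CPM and NEFM at 0.14 to 6.58 CPM. The summed level of the 6 fibroblast markers was 11.1 to 14.2 CPM with VT01454 and 11.8 to 14.2 CPM with vehicle, that of the 4 endothelial markers was 1.55 to 2.13 and 1.93 to 2.59 CPM, that of the 3 squamous markers was at most 0.49 and 0.157 CPM, and all 4 leukocyte markers were at 0 counts in every library. Among the fibroblast and endothelial markers DCN, PECAM1 and CDH5 had at most 2 counts in any library, whereas COL1A2 reached 173, COL3A1 111, LUM 71 and VWF 57 counts, and none of these 4 passed in edgeR.

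After 2 h with VT01454 the transcripts of the membrane-anchored inhibitor PMEPA1 and of the corepressor TGIF1 were higher than with vehicle, by 1.52-fold and 1.38-fold. In bulk RNA a difference in the share of cells that express a gene and a difference in RNA per cell cannot be told apart. None of the 9 genes fell in edgeR, DESeq2 or limma-voom, and none was lower at an unadjusted p below 0.05 in edgeR. SMAD3, SMAD7 and SKI differed by less than the spread between vehicle libraries. The corepressor gene SKIL and the matrix gene TGFBI stood higher on average with VT01454 but did not pass, and both were high in vehicle library 3. By edgeR's quasi-likelihood test, with Benjamini-Hochberg adjustment over all 15577 tested genes and a threshold of 0.05, 2 of 9 genes passed. Among all tested genes 1.89% passed in either direction, 1.27% as higher and 0.616% as lower. The libraries of the 2 groups did not overlap for 4 of the 9 genes, each higher with VT01454, where 21.1% of tested genes had groups without overlap (11.3% higher and 9.84% lower). An unadjusted p below 0.05 was found for 3 of the 9 genes and for 14.4% of tested genes. The count depended on single libraries. Without vehicle library 1, 0 of the 9 genes passed as higher in edgeR, where 0.458% of tested genes did, and without vehicle library 3, 4 of the 9 passed, where 7.36% did. Without VT01454 library 1 or 2, 1 of the 9 passed, where 0.584% and 0.532% of tested genes did. The median log2 fold change was 0.15 over the 9 genes and −0.0073 over all tested genes. The 9 genes were chosen with these results known, so their share above the background is a description and not independent evidence.

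**Figure D1:**
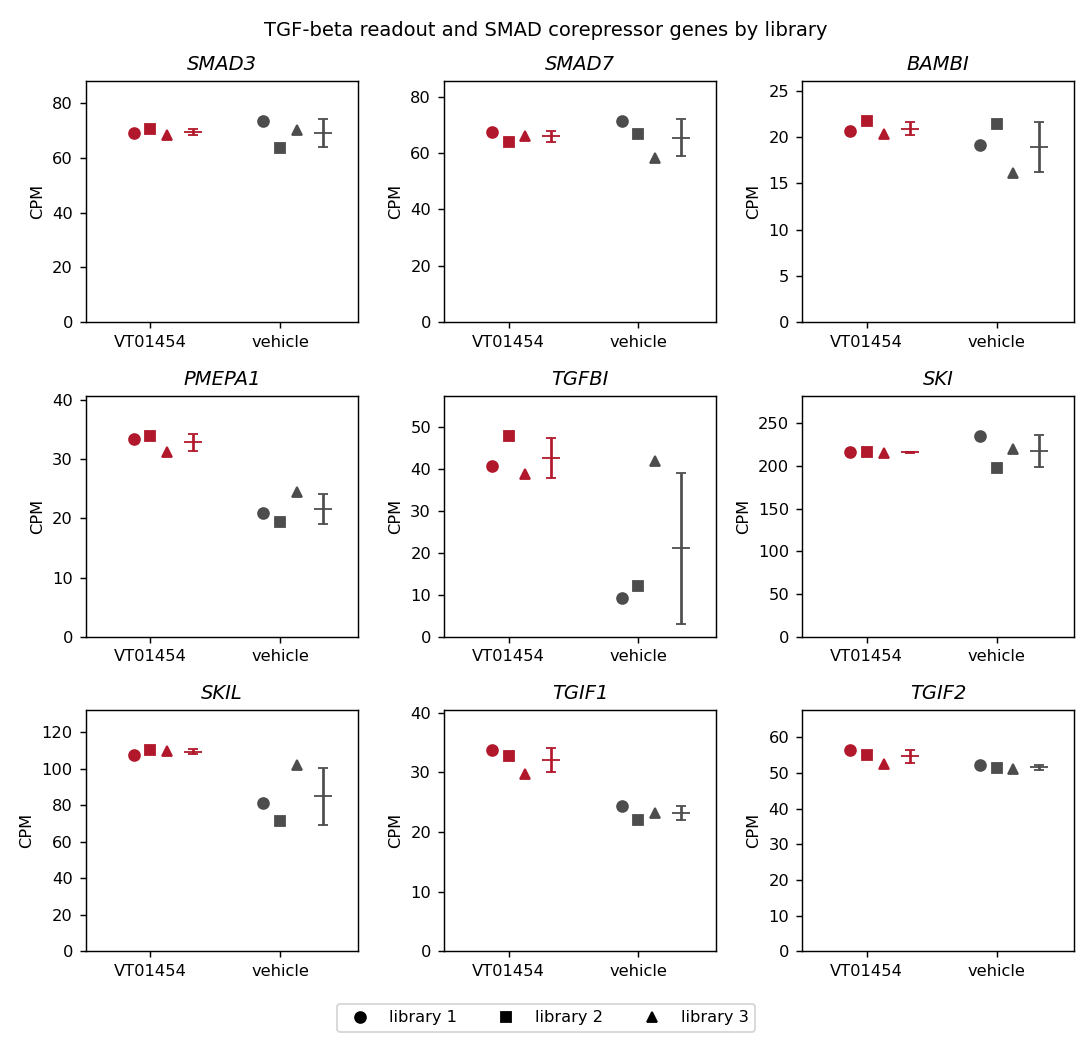
Level of each of the 9 genes in each library (CPM with TMM-scaled library sizes, vertical axis from 0), with VT01454 in red and vehicle in grey; symbols mark the library number, and the bar to the right of each group is the mean ± SD (n = 3). PMEPA1, TGIF1, SKIL and TGIF2 have groups that do not overlap, and vehicle library 3 lies at 41.8 CPM for TGFBI, against 9.34 and 12.05 CPM in the other vehicle libraries.

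PMEPA1 encodes a transmembrane protein that holds receptor-activated SMADs away from the receptors and recruits ubiquitin ligases. The gene lies on chromosome 20 (57648392 to 57711536, minus strand, GRCh38). It had 952, 846 and 766 counts with VT01454, or 33.4, 34.0 and 31.3 CPM in libraries 1, 2 and 3, against 444, 371 and 661 counts with vehicle, or 20.95, 19.4 and 24.4 CPM. All 3 VT01454 libraries lay above all 3 vehicle libraries, and the highest vehicle value was that of library 3. The means were 32.9 ± 1.41 CPM with VT01454 and 21.6 ± 2.58 CPM with vehicle (SD, n = 3 each). The log2 fold change was 0.60 ± 0.09 (SE, edgeR adjusted p = 0.00336), which ranked 82 of all tested genes by p. The call was lost without vehicle library 1 (adjusted p = 0.0681) and held without any other single library (adjusted p up to 0.0365), with log2 fold changes of 0.53 to 0.70. An antisense RNA gene, NKILA, shares 343 exonic bases with PMEPA1 (6.1% of its exonic length) and the strand setting of the counting is not given. NKILA itself had 33, 33 and 27 counts with VT01454 and 18, 21 and 34 with vehicle, at most 34 where PMEPA1 had at least 371, and did not pass (log2 fold change 0.15, edgeR adjusted p = 0.82).

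TGIF1 encodes a homeodomain protein that competes with co-activators for SMAD2 and SMAD3. It lies on chromosome 18 (3411608 to 3459978, plus strand). It had 959, 816 and 727 counts with VT01454, or 33.65, 32.8 and 29.7 CPM, against 516, 422 and 629 counts with vehicle, or 24.3, 22.02 and 23.2 CPM. The groups did not overlap, and here vehicle library 3 lay between the other vehicle libraries. The means were 32.0 ± 2.07 CPM with VT01454 and 23.2 ± 1.16 CPM with vehicle (SD, n = 3 each). This gave 0.47 ± 0.08 as log2 fold change (SE, edgeR adjusted p = 0.00798). The size moved little when single libraries were left out (0.43 to 0.52), but the call was lost without vehicle library 1 (adjusted p = 0.0554), VT01454 library 1 (0.0745) or VT01454 library 2 (0.0732).

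Its paralog TGIF2, a smaller protein of the same homeodomain family on chromosome 20 (36573488 to 36593950, plus strand), stood at 56.3, 55.0 and 52.5 CPM with VT01454, against 52.3, 51.4 and 51.0 CPM with vehicle. The lowest VT01454 library lay just above the highest vehicle library, and the difference did not pass (log2 fold change 0.084 ± 0.06, SE, edgeR adjusted p = 0.57, 95% interval −0.051 to 0.22). The annotated gene TGIF2-RAB5IF on the same strand shares 308 exonic bases with TGIF2 (8.14% of the exonic length of TGIF2). It had 0 counts in every library, and how reads in the shared bases were counted is not given. The log2 ratio of TGIF1 to TGIF2 counts within a library, which needs no scaling, was −0.74, −0.75 and −0.82 with VT01454 and −1.10, −1.22 and −1.13 with vehicle. This ratio was 0.38 ± 0.04 higher with VT01454 (SE, n = 3 each), with no overlap between groups, at the smallest p that 3 against 3 libraries allow (exact two-sided permutation p = 0.1, or 0.15 adjusted over the 3 paralog pairs compared), so a test of this difference could not reach 0.05.

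SKIL encodes SnoN, a corepressor that TGF-beta both degrades as a protein and induces as a transcript; SKI is its paralog and the family's founding member. SKIL (chromosome 3, 170357678 to 170396835, plus strand) stood at 107.5, 110 and 110 CPM with VT01454, against 81.2, 71.4 and 102 CPM with vehicle. All VT01454 libraries were above all vehicle libraries, by a narrow margin over vehicle library 3. The log2 fold change of 0.36 ± 0.11 (SE) did not pass in edgeR (adjusted p = 0.137), whereas DESeq2, with the same 6 libraries, gave 0.36 and an adjusted p = 0.0248. DESeq2 called 3 of the 9 genes as higher, where it called 2.38% of its tested genes as higher. Without vehicle library 3 the log2 fold change of SKIL was 0.51 (edgeR adjusted p = 1.79e-04); without any other single library its adjusted p was 0.116 to 0.415.

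SKI (chromosome 1, 2228695 to 2310119, plus strand) was the most abundant of the 9 transcripts per length and stood at 216, 217 and 216 CPM with VT01454, against 235.5, 198 and 220 CPM with vehicle. The VT01454 libraries all fell inside the range of the vehicle libraries, and the log2 fold change was −0.012 ± 0.06 (SE, edgeR adjusted p = 0.95, 95% interval −0.15 to 0.13), with a sign that changed under some settings. The log2 ratio of SKIL to SKI counts was −1.01, −0.98 and −0.98 with VT01454 and −1.53, −1.47 and −1.11 with vehicle. This ratio was 0.385 ± 0.13 higher with VT01454 (SE, n = 3 each), again at the smallest possible p (exact two-sided permutation p = 0.1, adjusted 0.15), and was 0.52 higher without vehicle library 3.

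**Figure D2:**
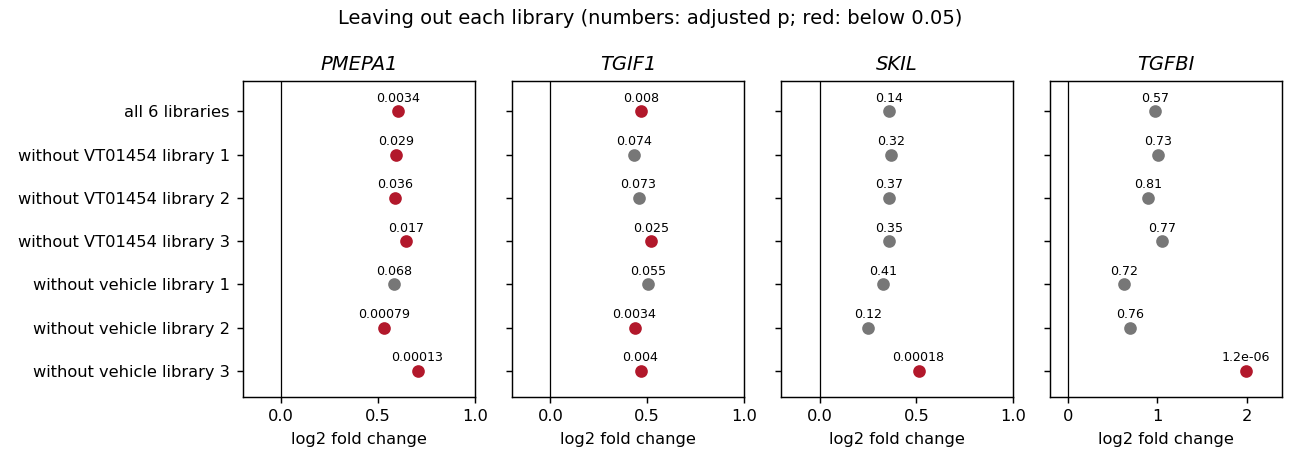
Log2 fold change of PMEPA1, TGIF1, SKIL and TGFBI (VT01454 over vehicle, horizontal axis, with a wider range for TGFBI) with all 6 libraries and with each library left out; the number above each point is its adjusted p, and red points are below 0.05. PMEPA1 passes in 5 and TGIF1 in 3 of the 6 fits with 1 library left out, while SKIL and TGFBI pass only in the fit without vehicle library 3.

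SMAD3, the receptor-activated SMAD that binds DNA directly, lies on chromosome 15 (67063763 to 67195195, plus strand) and stood at 69.2, 70.7 and 68.55 CPM with VT01454, against 73.5, 63.7 and 70.35 CPM with vehicle. SMAD7, the inhibitory SMAD that brings ubiquitin ligases to the active receptor and is a standard early target of the pathway, lies on chromosome 18 (48919853 to 48952052, minus strand) and stood at 67.6, 64.0 and 66.2 CPM with VT01454, against 71.3, 66.8 and 58.3 CPM with vehicle. The VT01454 values lay inside the vehicle range for both genes. The log2 fold changes were 0.0050 ± 0.07 for SMAD3 and 0.012 ± 0.08 for SMAD7 (SE, edgeR adjusted p = 0.978 and 0.958), signs that changed with the scaling, and their 95% intervals ran from −0.14 to 0.15 and from −0.15 to 0.18. The log2 ratio of SMAD7 to SMAD3 counts differed by 0.006 ± 0.11 between VT01454 and vehicle (SE, n = 3 each, exact two-sided permutation p = 0.9).

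BAMBI encodes a receptor-like membrane protein without a kinase domain that blocks receptor pairing. The gene (chromosome 10, 28677342 to 28682939, plus strand) had 589, 541 and 499 counts with VT01454, or 20.7, 21.7 and 20.4 CPM, against 407, 411 and 436 counts with vehicle, or 19.2, 21.45 and 16.1 CPM. The groups overlapped, since vehicle library 2 lay inside the VT01454 range and vehicle library 3 was the lowest of all. The log2 fold change was 0.15 ± 0.10 (SE, edgeR adjusted p = 0.525, 95% interval −0.069 to 0.37). These libraries were thus compatible with a small fall, with no change and with a rise of up to about that upper bound. The value was 0.042 without vehicle library 3 and 0.25 without vehicle library 2, and it did not pass in either case (edgeR adjusted p = 0.797 and 0.198).

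TGFBI encodes a secreted adhesion protein of the extracellular matrix and is named for its induction by TGF-beta. The gene (chromosome 5, 136028895 to 136063818, plus strand) had 1160, 1192 and 951 counts with VT01454, or 40.7, 47.9 and 38.9 CPM, against 198, 231 and 1132 counts with vehicle, or 9.34, 12.05 and 41.8 CPM. Vehicle libraries 1 and 2 were low, whereas vehicle library 3 lay inside the range of the VT01454 libraries. The exact 95% Poisson intervals of the vehicle counts (171 to 228, 202 to 263 and 1067 to 1200) show that counting error, which is all they cover, does not bridge this gap. The means were 42.5 ± 4.76 CPM with VT01454 and 21.1 ± 18.0 CPM with vehicle (SD, n = 3 each). The biological coefficient of variation that edgeR estimated for TGFBI, 0.553, was above that of 99.5% of tested genes, and its log2 fold change of 0.98 ± 0.64 (SE) did not pass (adjusted p = 0.569, 95% interval −0.78 to 2.73). Without vehicle library 3 the log2 fold change was 1.99 (edgeR adjusted p = 1.20e-06); without any other single library it was 0.63 to 1.05 with adjusted p of 0.722 to 0.807.

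Some of the other reported TGF-beta targets, named here after their values were seen, showed the same order of libraries and others did not. THBS1, the gene of thrombospondin, a protein that can activate latent TGF-beta, stood at 18.8, 22.7 and 24.6 CPM with VT01454, against 12.5, 12.2 and 20.9 CPM with vehicle. FN1, the fibronectin gene, stood at 69.1, 60.1 and 57.9 CPM with VT01454, against 46.8, 39.7 and 66.8 CPM with vehicle. In both genes vehicle library 3 lay inside the VT01454 range and libraries 1 and 2 of the vehicle group lay below it, and neither passed (edgeR adjusted p = 0.341 and 0.556). Further matrix genes of the list differed from these. Vehicle library 3 was 0.57 lower for COL1A1, a fibrillar collagen gene, than the mean of vehicle libraries 1 and 2 on the log2(CPM + 0.5) scale, and it stood 0.087 above that mean for COL4A1 and 0.067 above it for LTBP2. In all, vehicle library 3 was the highest vehicle library for 8 of the 20 tested targets, or 40.0%, against 38.1% of all tested genes.

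Set against the mean of vehicle libraries 1 and 2, vehicle library 3 was 1.93 higher for TGFBI on the log2(CPM + 0.5) scale. Among all tested genes the median of this difference was 0.013, with a 5th percentile of −0.41 and a 95th of 0.39. Only 79 of 13409 genes with a mean of at least 1 CPM differed by at least 1 on this scale in either direction, 32 of them with library 3 higher. SKIL (0.42) lay just above that 95th percentile, PMEPA1 (0.27) below it, TGIF1 stood at 0.0038, and SMAD7 (−0.24) and BAMBI (−0.33) were on the lower side. Vehicle library 3 was the highest vehicle library for 3 of the 9 genes (PMEPA1, SKIL and TGFBI). What sets this library apart, and its part in the values of these genes, was not tested.

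**Figure D3:**
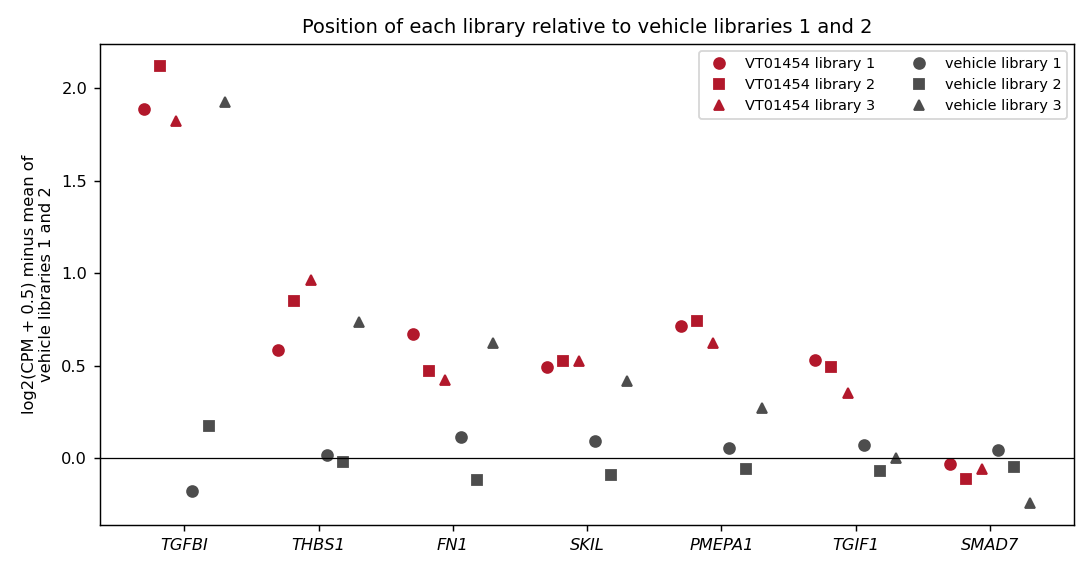
Position of every library relative to vehicle libraries 1 and 2 for 7 genes chosen after their values were seen, as log2(CPM + 0.5) minus the mean of those 2 libraries; VT01454 is red, vehicle grey, and symbols mark the library number. For TGFBI, THBS1 and FN1 the grey triangle of vehicle library 3 lies among the red points, while for PMEPA1 and TGIF1 it lies below all of them.

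Levels between genes were compared per length, as CPM per kb of annotated exons (the union of all GENCODE exons of a gene, which understates genes with many alternative exons such as TGIF1). With VT01454 the order of levels was SKI (35.6), TGIF2 (14.4), SKIL (14.0), SMAD7 (13.1), BAMBI (9.05), SMAD3 (7.62), PMEPA1 (5.86), TGFBI (5.44) and TGIF1 (3.90 CPM per kb). With vehicle it was SKI (35.9), TGIF2 (13.6), SMAD7 (13), SKIL (10.9), BAMBI (8.17), SMAD3 (7.59), PMEPA1 (3.84), TGIF1 (2.82) and TGFBI (2.70 CPM per kb). Neighbours whose libraries overlapped were TGIF2 with SKIL and PMEPA1 with TGFBI in the VT01454 group. In the vehicle group they were TGIF2 with SMAD7, SMAD7 with SKIL, SKIL with BAMBI, BAMBI with SMAD3, and TGIF1 with TGFBI. SKI was therefore the most abundant corepressor transcript per length in both groups, and the 2 genes that rose were among the 3 lowest per length with vehicle. This rank depended on the length used. In plain CPM the vehicle means of BAMBI (18.9) and TGFBI (21.1) lay below those of PMEPA1 (21.6) and TGIF1 (23.2).

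**Figure D4:**
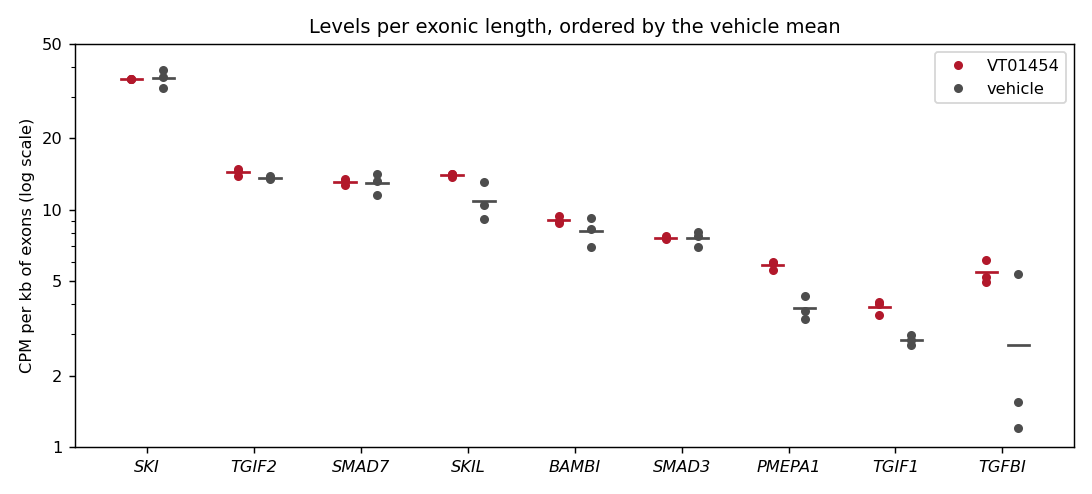
CPM per kb of annotated exons on a log axis for the 9 genes, ordered by the vehicle mean; each point is a library, each short line a group mean (n = 3), VT01454 in red on the left of each pair and vehicle in grey on the right. SKI stands at 35.6 and 35.9 CPM per kb, and PMEPA1 and TGIF1 are higher with VT01454 than with vehicle in all libraries.

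The sequence before the start sites of PMEPA1, TGIF1, SKIL and TGFBI is shown because these are the 4 genes with the largest differences. RefSeq promoter windows on GRCh38.p14 were found for 8 of the 9 genes (24 start sites; SKI had none), and the 250 bases before each start site were searched on both strands. The searched letters of SMAD sites were CAGAC, a binding element with its flank, and GTCTAGAC, the palindromic element, which does not contain the other. Those of the bZIP factors were TGACTCA for AP-1 and, as the cAMP response element, TGACGTCA. EGR zinc finger sites were searched as GCGGGGGCG and GCGTGGGCG. The TEAD factors, which carry YAP and TAZ to DNA, were searched as CATTCC. The GC box, which can overlap an EGR site in part, was searched by the 6 letters GGGCGG. For each gene the window nearest a principal GENCODE transcript start that held at least 100 bases outside annotated exons is printed without bases inside those exons, 5′ to 3′ on the gene's strand, with capitals for every searched match other than the GC box. The stretches are chr20:57710016-57710265 (minus) for PMEPA1, chr18:3448181-3448430 (plus) for TGIF1, chr3:170357465-170357677 (plus) for SKIL and chr5:136028738-136028894 (plus) for TGFBI.
PMEPA1: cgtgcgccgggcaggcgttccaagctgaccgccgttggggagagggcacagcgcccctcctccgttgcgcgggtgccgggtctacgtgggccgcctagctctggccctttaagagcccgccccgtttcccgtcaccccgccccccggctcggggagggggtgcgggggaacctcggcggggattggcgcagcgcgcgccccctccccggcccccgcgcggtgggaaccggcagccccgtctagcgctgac
TGIF1: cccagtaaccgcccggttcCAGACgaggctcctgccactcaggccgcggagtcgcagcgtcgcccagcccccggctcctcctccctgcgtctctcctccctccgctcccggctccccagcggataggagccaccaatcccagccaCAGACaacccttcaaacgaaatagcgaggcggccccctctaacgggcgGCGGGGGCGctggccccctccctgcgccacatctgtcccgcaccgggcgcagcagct
SKIL: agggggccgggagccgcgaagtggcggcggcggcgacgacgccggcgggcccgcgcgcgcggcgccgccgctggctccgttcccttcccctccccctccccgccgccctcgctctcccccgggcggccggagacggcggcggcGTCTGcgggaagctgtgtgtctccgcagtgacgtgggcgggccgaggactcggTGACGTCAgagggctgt
TGFBI: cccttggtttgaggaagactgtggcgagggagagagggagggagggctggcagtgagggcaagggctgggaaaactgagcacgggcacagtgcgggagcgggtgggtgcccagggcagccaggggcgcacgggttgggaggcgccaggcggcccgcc

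The TGIF1 stretch holds CAGAC at 2 places and 1 EGR match, the SKIL stretch holds 1 CAGAC on the other strand (read as GTCTG) and 1 TGACGTCA, and the PMEPA1 and TGFBI stretches hold none of the motifs marked in capitals. The printed TGIF1 window ranked 4 in nearness, and the stretches do not stand for all windows of a gene. CAGAC was in 2 of the 4 windows of PMEPA1, 4 of the 7 of TGIF1, 1 of 1 of SKIL and 0 of 1 of TGFBI. Over all 24 windows of the members, 12 held CAGAC, where 38.0% of 35116 human windows did. The GC box was in 14 of the 24, where 42.6% of all windows held it. TGACGTCA was in 1 of them (1.65% of all windows), GCGGGGGCG in 1 (4.72%), TGACTCA in 1 (4.20%), CATTCC in 4 (11.9%), and GCGTGGGCG (0.72%) and GTCTAGAC (0.182%) in none. Windows of 1 gene can overlap, the counts do not show which start site was used, and a match or its absence in 250 bases describes letters and not binding.

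Of 72 other pathway genes listed by role, 68 were abundant enough to test, 6 rose, 2 fell and 60 did not pass, which is 11.8% called against 1.89% of all tested genes. Without vehicle library 1, or without any 1 of the VT01454 libraries, 3 rose and 1 fell, and without vehicle library 3, 22 rose and 2 fell. The calls among all tested genes moved as well. They were 0.584% without vehicle library 1, 0.676% to 0.854% without 1 of the VT01454 libraries, and 11.4% without vehicle library 3. The list was drawn from textbook knowledge with earlier results of these data known, so the share of it that was called is not independent evidence. With all 6 libraries edgeR called no gene in 4 of the roles. None of 9 ligand and latency protein genes and none of 7 receptor genes passed. None of 14 genes of SMAD turnover and traffic and none of 12 nuclear cofactor genes passed either. In that order 0, 2, 4 and 4 of them had an unadjusted p below 0.05 in edgeR (14.4% of all tested genes did). The 22 genes that rose without vehicle library 3 were not split by role, so these roles may hold calls in that fit. With all 6 libraries DESeq2 and limma-voom called no gene of these roles either. Their smallest p-values were those of LTBP1, a latency protein that anchors TGF-beta in the matrix (41.7 ± 0.849 CPM with VT01454 and 37.8 ± 2.13 CPM with vehicle, SD, n = 3 each, edgeR adjusted p = 0.381), of the co-receptor TGFBR3 (49.3 ± 0.697 and 42.2 ± 5.64 CPM, adjusted p = 0.275), of the SMAD phosphatase PPM1A (78.7 ± 2.61 and 69.7 ± 2.99 CPM, adjusted p = 0.229) and of SIN3A, the scaffold of a histone deacetylase complex (156 ± 1.07 and 136 ± 13.4 CPM, adjusted p = 0.217). The kinase receptor genes TGFBR1 and TGFBR2, named after their values were seen, stood at log2 fold changes of 0.084 ± 0.08 and −0.165 ± 0.07 (SE, edgeR adjusted p = 0.668 and 0.327).

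Among the other SMADs, SMAD6, the inhibitory SMAD of the BMP branch and a BMP target, fell. It stood at 32.4, 32.5 and 33.1 CPM with VT01454, against 45.1, 40.4 and 38.2 CPM with vehicle, and the groups did not overlap. Its log2 fold change was −0.34 ± 0.08 (SE, edgeR adjusted p = 0.0442). SMAD6 no longer passed when vehicle library 1 or any 1 of the VT01454 libraries was removed (adjusted p reached 0.255 at most), or with limma-voom. SMAD2, SMAD4, SMAD1, SMAD5 and SMAD9 did not pass, and SMAD4, the shared partner of the receptor-activated SMADs, also named after its value was seen, stood at 0.16 ± 0.07 (SE, log2 fold change, edgeR adjusted p = 0.294).

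Of 20 tested genes reported elsewhere as TGF-beta targets, 6 rose, 1 fell and 13 did not pass, which is 35% called against 1.89% of all tested genes. Their median log2 fold change was 0.22, against −0.0073 over all tested genes. An unadjusted p below 0.05 in edgeR was found for 11 of the 20 and for 14.4% of all tested genes. Several of the 20 are also immediate early, p53 or YAP/TAZ targets. JUNB, an AP-1 subunit, stood at 43.0, 43.8 and 41.3 CPM with VT01454, against 19.8, 20.1 and 15.5 CPM with vehicle (log2 fold change 1.22 ± 0.10, SE, edgeR adjusted p = 1.50e-05). KLF11 and KLF10, zinc finger genes also known as TGF-beta inducible early genes, rose 1.46-fold and 1.24-fold (edgeR adjusted p = 0.00165 and 0.0255), the clock-linked repressor gene BHLHE40 rose 1.45-fold (0.00169), ZEB2, which encodes a SMAD-binding zinc finger repressor, rose 1.36-fold (0.0468), and the cell cycle inhibitor gene CDKN1A rose 1.23-fold (0.0492). CCN2, the connective tissue growth factor gene, which both SMAD and YAP/TAZ complexes induce, went the other way and stood at 75.7, 74.6 and 74.9 CPM with VT01454, against 160, 173 and 163 CPM with vehicle (log2 fold change −1.14 ± 0.06, SE, edgeR adjusted p = 4.47e-07). JUNB, KLF11, BHLHE40 and CCN2 passed without any single library, whereas KLF10, ZEB2 and CDKN1A did not without vehicle library 1 or any 1 of the VT01454 libraries (adjusted p reached 0.187, 0.238 and 0.265). With library size alone as the scaling ZEB2 and CDKN1A did not pass either, and CDKN1A was also lost with limma-voom and with the replicate number as a block.

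**Figure D5:**
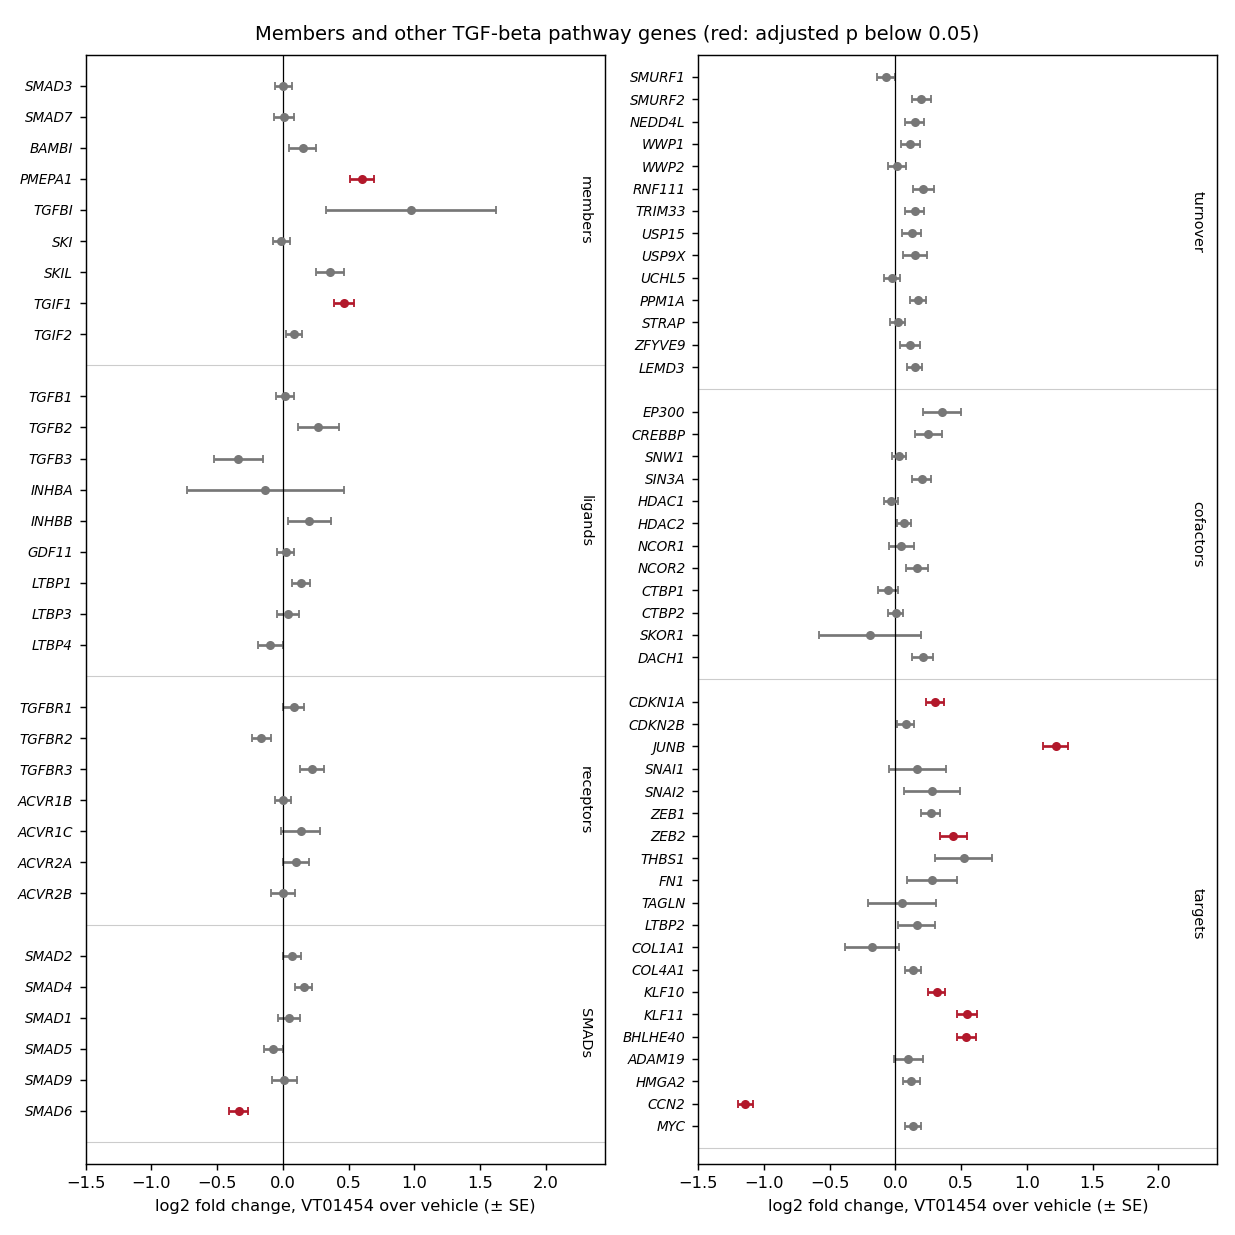
Log2 fold change of VT01454 over vehicle (points, ± SE) for the 9 members and the 68 tested genes of the pathway list, grouped by role; red points have an adjusted p below 0.05 (edgeR, over all 15577 tested genes). PMEPA1 and TGIF1 among the members, SMAD6 among SMADs and 7 reported targets are red, and CCN2 is the point furthest to the left at −1.14.

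The genes whose profile over the 6 libraries was most like that of PMEPA1, by the Euclidean distance between log2 CPM values centred on each gene's own mean and among 13380 genes, were the zinc finger gene ZNF41 (distance 0.053), the AP-1 gene FOSL2 (0.082) and the RNA helicase gene DDX52 (0.12). For TGIF1 the 3 nearest included the membrane protein gene MYADM (0.13) and the phosphatase subunit gene PPP1R3F (0.13). With VT01454 and with vehicle, ZNF41 averaged 18.4 and 12 CPM, FOSL2 33.6 and 21.9 CPM, and DDX52 46.3 and 29.3 CPM. PMEPA1 and TGIF1 were taken because they passed, so genes of like profile share a difference between the groups by that choice. The distances cover both groups together and are a description, with no test.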

How the data were processed

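Total RNA of HEK293A cells was sequenced in 6 libraries (NEBNext Ultra II, per the labels' protocols). Each deposited table gives raw counts of reads per Ensembl gene, not normalized; HISAT2 2.2.1, HTSeq 0.9.1 and build hg38 are named in the submitters' processing notes. Of the annotation release, the strand setting and the handling of multiply mapped reads the sources used here say nothing, and the files hold no lines for unassigned reads. Symbols matched 60357 of 60676 IDs; coordinates (1-based) and exonic lengths came from GENCODE 29, which covers 58503 IDs on the same build, and promoter sequences from RefSeq (GRCh38.p14).

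Genes were kept by filterByExpr, TMM factors were computed, and VT01454 was tested against vehicle with edgeR 4.0.16 (quasi-likelihood F-test, robust, two-sided; R 4.3.3), with Benjamini-Hochberg adjustment over all 15577 tested genes and a threshold of 0.05. The SE is the absolute log2 fold change over √F, and 95% intervals use the fit's degrees of freedom. CPM are counts over TMM-scaled library sizes. Paralog ratios (0.5 added to each count) were tested by exact permutation. No library pair was identical or within sampling noise. For counting error alone, a count of 0 allows 3 counts, that is 0.104 to 0.157 CPM by total counts without TMM factors. The procedure was tested on simulated data.

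Members and lists were chosen with earlier results of these data known. Some listed or rule-named genes are not reported here. Named genes are every member, every listed pathway gene that passed, the smallest p of each role and the 3 nearest profiles of each member that passed; for any other gene the text says that its values were seen first. Alternatives were DESeq2 1.42.0, its size factors in edgeR, library size alone, no count filter, the replicate number as a block, a filter at a mean of 1 CPM, limma-voom (limma 3.58.1), another prior count for the ratios and leaving out each library. The replicate numbers do not pair the libraries by the labels.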

Additional observations from a re-analysis of the deposited data

How the results depend on the processing

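With other scalings, filters and tools on all 6 libraries, 2 or 3 members passed as higher and none as lower, and PMEPA1 and TGIF1 passed in each of the 7 alternatives. The share of all tested genes that passed as higher ran from 1.02% with library size alone to 2.38% with DESeq2. SKIL passed with DESeq2, without a count filter (adjusted p = 3.39e-05) and with the replicate block. Without a count filter 508 genes passed as higher and 205 as lower, and with limma-voom 1 of the other pathway genes passed as lower; the cause was not tested. Leaving out single libraries gave 73 to 1170 genes higher, 20 to 636 lower and 0 to 4 members higher. Of the other pathway genes 3 to 22 were higher and 1 to 2 lower. Each maximum of the higher counts came without vehicle library 3 (11.4% of genes called). Each minimum was reached without vehicle library 1 (0.584% called). The minima of the other pathway genes, 3 higher and 1 lower, were also reached without any 1 of the VT01454 libraries. Without 1 of the VT01454 libraries 85 to 93 genes were higher (0.532% to 0.584% of tested genes) and 21 to 43 lower, with 1 or 2 members higher. Without vehicle library 2, 255 were higher (1.6%) and 159 lower, with 2 members higher.

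Signs near 0 changed: with library size alone SMAD3 stood at −0.019 and SMAD7 at −0.012, and without a count filter SKI stood at 0.0017 (log2 fold changes). Without single libraries SMAD3 ran from −0.049 to 0.051, SMAD7 from −0.069 to 0.079, SKI from −0.074 to 0.048, and the difference in the SMAD7 to SMAD3 ratio from −0.088 to 0.081, while that of TGIF1 to TGIF2 stayed at 0.35 to 0.41 and that of SKIL to SKI at 0.30 to 0.52.

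Same-numbered libraries did not deviate together (r = −0.093, −0.013 and −0.0078 for numbers 1, 2 and 3). The replicate block gave 232 genes higher and 107 lower against 198 and 96 without it, with SKIL at 0.37 (adjusted p = 0.0322), and sign flips of 3 pairs cannot give a p below 0.25.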
